A study of Homo sapiens with 24 samples.

Results

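Imprinted control loci are stretches of the genome where the maternal and the paternal chromosome copy carry different chromatin. The 9 loci described here are H19, KCNQ1OT1, SNRPN, PEG10, MEST, PLAGL1, GNAS, MEG3 and L3MBTL1. Their members are all counted regions that overlap 1 window per locus in the human build hg19. The windows held 30 of the 153244 regions of the series, with 6 regions each at GNAS and MEG3, 4 at MEST, 3 each at H19, KCNQ1OT1 and SNRPN, 2 each at PEG10 and PLAGL1, and 1 at L3MBTL1. Histone marks were mapped by CUT&Tag, in which an antibody brings a transposase to the marked nucleosomes so that the DNA there is cut and tagged. The cells were ventricular-like cardiomyocytes on day 15 after H9 human embryonic stem cells were set to differentiate. Cells with a knockdown of ZNF436 (ZNF436kd), a gene for a KRAB zinc finger protein, gave 3 libraries for each of 4 marks, and control cells (ctrl) gave 3 libraries for each mark, 24 libraries in all. Both groups passed through the same differentiation. How the knockdown was made and what the control cells received was not stated in the labels. No source says that libraries of a group came from separate cultures, so the tests measure the spread between libraries, which may be technical.

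At an imprinted locus the copy inherited from one parent is methylated at a differentially methylated region (DMR), and that copy is kept silent with H3K9me3, a mark of heterochromatin. KRAB zinc finger proteins take part in this: ZFP57 binds the methylated letters TGCCGC and brings in TRIM28 and the H3K9 methyltransferase SETDB1. The other copy is free of DNA methylation and, where the DMR is also a promoter, carries H3K4me3, the mark of active promoters. H3K4me1 marks enhancers and promoter flanks, and H3K27ac marks active enhancers and promoters. At KCNQ1OT1, SNRPN, PEG10, MEST, PLAGL1, L3MBTL1 and both promoter DMRs of GNAS the maternal copy is the methylated one. At H19 and at the intergenic DMR (IG-DMR) of MEG3 it is the paternal copy. CUT&Tag counts do not separate the copies, so a level here is the sum over both.

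Promoter sequences are shown first, for 5 of the genes described below, to show where the letters bound by ZFP57 occur. They are RefSeq sequences of the build GRCh38.p14, from 250 bases before to 50 bases after a listed start, and were matched by gene symbol only. The counted regions are in hg19, and which hg19 region each start falls in was not determined. A gene with several listed starts is shown by the one with most CpG dinucleotides. Capitals mark TGCCGC or its reverse complement GCGGCA.
SNRPN, chr15:24954737-24955036, plus strand: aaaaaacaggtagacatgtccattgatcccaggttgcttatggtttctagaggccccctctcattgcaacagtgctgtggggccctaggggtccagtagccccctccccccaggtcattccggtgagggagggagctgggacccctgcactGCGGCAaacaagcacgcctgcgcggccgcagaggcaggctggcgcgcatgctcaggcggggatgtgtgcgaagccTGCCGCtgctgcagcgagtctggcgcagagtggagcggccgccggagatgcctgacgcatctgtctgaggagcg
PLAGL1, chr6:144008210-144008509, minus strand: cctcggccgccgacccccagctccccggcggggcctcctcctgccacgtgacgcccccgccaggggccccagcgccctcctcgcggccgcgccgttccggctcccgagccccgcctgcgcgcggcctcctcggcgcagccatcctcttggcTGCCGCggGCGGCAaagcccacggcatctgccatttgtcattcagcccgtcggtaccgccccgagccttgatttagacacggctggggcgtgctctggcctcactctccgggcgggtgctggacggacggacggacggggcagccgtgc
MEST, chr7:130491835-130492134, plus strand: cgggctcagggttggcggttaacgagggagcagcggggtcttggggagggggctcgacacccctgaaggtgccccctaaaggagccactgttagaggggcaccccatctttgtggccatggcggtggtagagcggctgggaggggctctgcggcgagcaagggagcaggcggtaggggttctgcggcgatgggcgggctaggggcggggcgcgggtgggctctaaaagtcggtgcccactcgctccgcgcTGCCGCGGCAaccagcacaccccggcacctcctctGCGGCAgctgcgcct
GNAS, chr20:58888930-58889229, plus strand: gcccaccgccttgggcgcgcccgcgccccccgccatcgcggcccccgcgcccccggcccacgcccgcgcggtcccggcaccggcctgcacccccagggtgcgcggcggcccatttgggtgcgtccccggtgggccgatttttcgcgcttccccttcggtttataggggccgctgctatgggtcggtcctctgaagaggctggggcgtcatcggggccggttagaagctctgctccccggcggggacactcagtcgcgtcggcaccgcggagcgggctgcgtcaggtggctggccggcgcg
MEG3, chr14:100825858-100826157, plus strand: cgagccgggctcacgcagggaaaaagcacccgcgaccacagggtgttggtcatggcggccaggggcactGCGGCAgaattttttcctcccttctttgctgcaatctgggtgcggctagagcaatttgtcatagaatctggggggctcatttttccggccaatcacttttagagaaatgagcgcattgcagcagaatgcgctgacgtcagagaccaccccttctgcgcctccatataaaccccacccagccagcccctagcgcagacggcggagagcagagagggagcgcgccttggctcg
The MEST sequence holds 3 matches, of which some overlap, SNRPN and PLAGL1 hold 2 each, MEG3 holds 1 and GNAS holds 0. Of all listed starts, a match stands at 4 of 5 for MEST, 2 of 4 for SNRPN, 1 of 5 for PLAGL1, 3 of 3 for MEG3 and 1 of 6 for GNAS. Among all 34943 promoters of the table, 16.7% hold at least 1 match on either strand, 2.75% hold at least 2 and 0.441% hold at least 3. The printed sequences contain 18 CpG dinucleotides at SNRPN, 39 at PLAGL1, 25 at MEST, 43 at GNAS and 19 at MEG3, against a median of 14 over all promoters. The entry for H19 has 6 CpG dinucleotides and 0 matches. L3MBTL1, not printed, has a match at 1 of 2 listed starts. KCNQ1OT1 and PEG10 had no entry among the promoter sequences, so they were not examined for matches. The printed starts were picked for their CpG number, while the median and the percentages over all promoters involve no such pick. The comparison is therefore not like for like. A match is a description of the letters and no binding was measured.

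Libraries held 2103185 to 2880412 counts of H3K9me3, 11023905 to 13933927 of H3K4me3, 3920283 to 4936265 of H3K4me1 and 2955710 to 3681687 of H3K27ac. At the ZNF436 promoter, H3K4me3 was 11.6, 10.1 and 9.59 CPM (read counts divided by a TMM-normalised library size) in knockdown libraries, against 153, 173 and 161 CPM in control libraries. Summed over TNNT2, MYH6 and NKX2-5, H3K4me3 was 567, 478 and 525 CPM in knockdown libraries, against 290.1, 129 and 581 CPM in control libraries, so that control replicates 1 and 2 stood apart with low values. H3K27ac at these genes was 927, 849 and 920.0 CPM in knockdown libraries, against 694, 379.9 and 986 CPM in control libraries. Of 5 marker genes of other cells, NANOG and CDH5 had no counted region, and SOX2, PAX6 and WT1 together summed to 37.1 to 41.9 CPM of H3K4me3 in knockdown and 31.8 to 40.8 CPM in control libraries, most of it at SOX2. The sum joins opposite directions. SOX2 had 30.5, 32.5 and 32.1 CPM in knockdown libraries, against 19.9, 29.0 and 28.0 CPM in control libraries. WT1 had 5.69, 6.93 and 7.85 CPM in knockdown libraries, against 11.6, 8.68 and 8.08 CPM in control libraries. Groups overlapped at PAX6 only.

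The maternally methylated DMRs were promoter-like regions with strong H3K4me3 in both groups. Those at KCNQ1OT1, SNRPN, PEG10, PLAGL1, L3MBTL1 and exon A/B of GNAS have the highest H3K4me3 per kb of their locus. Those at MEST and at the AS1 and XL promoters of GNAS have the highest H3K9me3 per kb. Outside GNAS, no region of these loci has an element name placed by position. High levels are therefore not independent of how these regions were named. Levels are compared between regions as CPM per kb of region, and as percentiles, the percentage of all 153244 regions with a lower value. Over the 8 regions H3K4me3 averaged 12.1 to 28.1 CPM per kb in knockdown libraries and 11.4 to 27.4 CPM per kb in control libraries, at percentiles of 92.5 to 97.1 in knockdown and 92.4 to 96.9 in control libraries. The KCNQ1OT1 DMR (chr11:2718368-2722563 in hg19), the promoter of the antisense RNA that silences neighbouring genes in cis, had 93.7, 94.1 and 93.7 CPM in knockdown libraries, against 91.4, 97.2 and 98.9 CPM in control libraries. The SNRPN DMR (chr15:25199658-25202754), at the start of the gene for the splicing protein SmN, had 75.5, 71.3 and 79.0 CPM in knockdown libraries, against 70.3, 78.0 and 71.9 CPM in control libraries. The groups overlapped at both DMRs.

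PEG10 is a gene derived from a retrotransposon and needed for the placenta in mouse. Its DMR (chr7:94283693-94288352) had 109, 104 and 111 CPM of H3K4me3 in knockdown libraries, against 101, 102 and 109 CPM in control libraries. The region of L3MBTL1 (chr20:42142009-42144424), whose protein binds methylated histones, had 69.6, 64.6 and 67.1 CPM in knockdown libraries, against 60.4, 69.1 and 68.9 CPM in control libraries. The PLAGL1 DMR (chr6:144328589-144330142), at the promoter of a zinc finger transcription factor gene, had 27.8, 20.8 and 25.04 CPM in knockdown libraries, against 21.0, 22.8 and 21.6 CPM in control libraries. The groups overlapped at all 3. The MEST DMR (chr7:130130191-130133745), at a paternally expressed gene for a hydrolase-like protein, had 43.2, 52.0 and 45.4 CPM in knockdown libraries, against 56.3, 48.8 and 51.0 CPM in control libraries, again with overlap.

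GNAS, which encodes the alpha subunit of the stimulatory G protein, holds 2 of the 8 regions. The region over the AS1 and XL promoters (chr20:57425189-57427892) had 35.4, 32.7 and 30.3 CPM of H3K4me3 in knockdown libraries, against 29.8, 29.5 and 33.1 CPM in control libraries. The region over exon A/B and the main promoter (chr20:57462999-57469796) had 206, 182 and 185 CPM in knockdown libraries, against 173, 172 and 178 CPM in control libraries. Here the knockdown libraries all lay above the control libraries, by a log2 fold change of 0.13 (SE 0.06), short of the threshold at an adjusted p of 0.507 by edgeR. This region joins an imprinted and a non-imprinted promoter of GNAS in 1 count. The NESP55 region (chr20:57414621-57416250), a further promoter of the locus, had less H3K4me3, 3.95 CPM per kb in knockdown and 3.27 CPM per kb in control libraries. Its H3K9me3 was 1.86 CPM per kb in knockdown and 2.33 CPM per kb in control libraries. NESP55 was placed in neither class of DMR here, so the comparison of the classes below does not cover it.

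**Figure D1:**
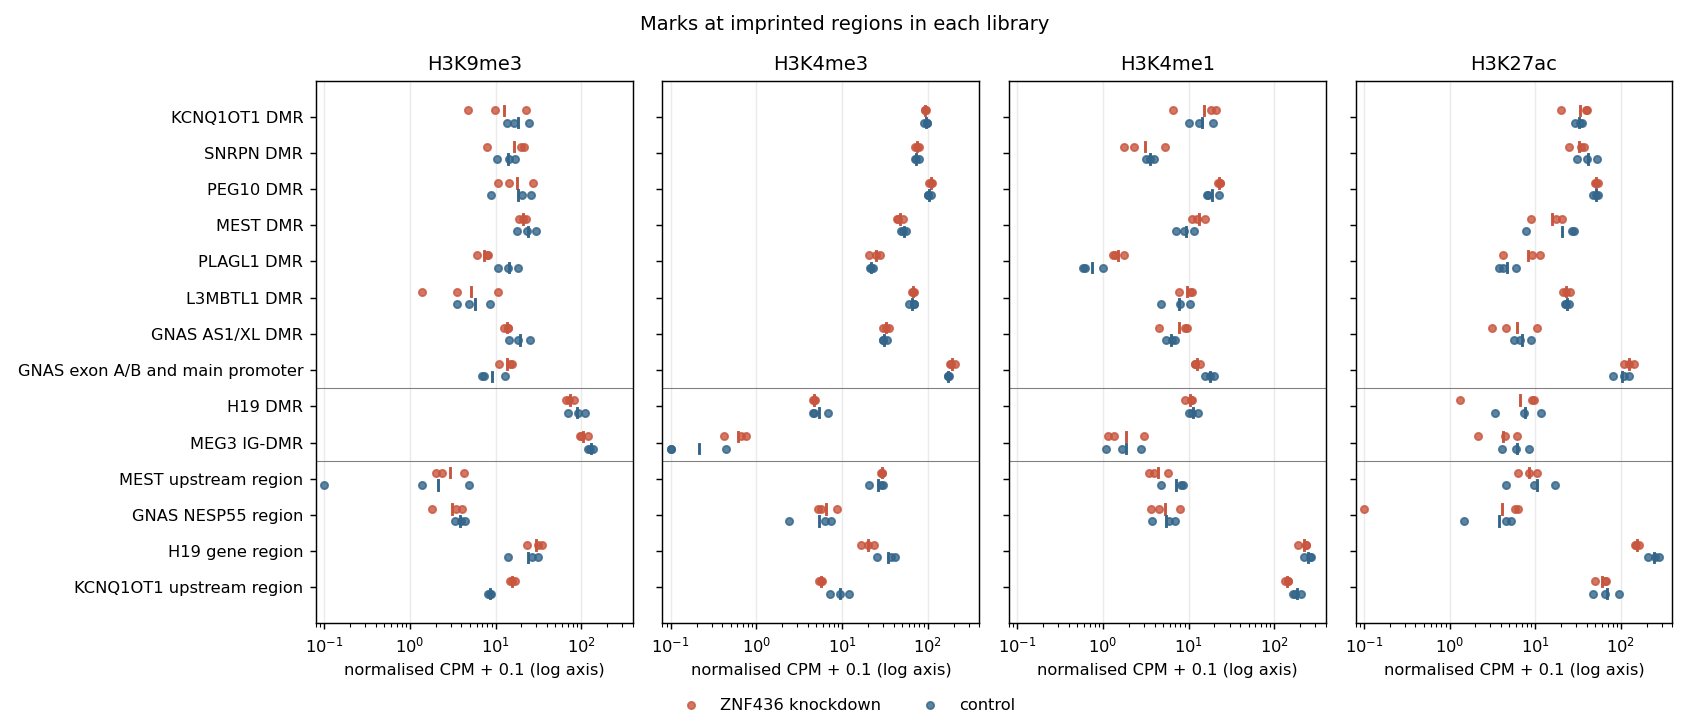
Normalised CPM of 4 marks at 14 named regions, plotted on a log axis after adding 0.1. Each point is 1 library and short lines are means of 3 libraries. Grey lines divide maternally methylated DMRs (top), the H19 DMR and MEG3 IG-DMR (middle) and other regions. H3K4me3 runs high in the top block and H3K9me3 in the middle block, in both groups.

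The H19 DMR and the MEG3 IG-DMR had more H3K9me3 and less H3K4me3 per kb than the maternally methylated DMRs. The H19 DMR (chr11:2020722-2024674), the insulator between H19 and IGF2, had 83.0, 71.3 and 67.0 CPM of H3K9me3 in knockdown libraries, against 110.2, 91.8 and 69.3 CPM in control libraries. Per kb this was 18.7 CPM in knockdown and 22.9 CPM in control libraries, at percentile 96.3 in knockdown and 99.0 in control libraries. The groups overlapped through control replicate 3. The MEG3 IG-DMR (chr14:101273395-101279310), the control element of the DLK1 and MEG3 domain, had 119, 100.3 and 97.0 CPM of H3K9me3 in knockdown libraries, against 127, 137 and 121 CPM in control libraries. All knockdown libraries were below all control libraries there, with 17.8 CPM per kb in knockdown and 21.7 CPM per kb in control libraries. Neither difference passed the test: the log2 fold change was -0.30 (SE 0.20, adjusted p = 0.711) at the H19 DMR and -0.29 (SE 0.17, adjusted p = 0.678) at the MEG3 IG-DMR by edgeR. The 95% intervals of the fold change at these DMRs together spanned 0.622 to 1.07.

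H3K4me3 at these DMRs was lower per kb than at the maternally methylated ones. The MEG3 IG-DMR had 0.560, 0.319 and 0.661 CPM in knockdown libraries, against 0, 0 and 0.344 CPM in control libraries, from 18 counts in all knockdown libraries and 4 in all control libraries, and was too low to be tested. The H19 DMR had 4.67, 4.54 and 4.46 CPM in knockdown libraries, against 6.72, 4.45 and 4.64 CPM in control libraries, which is 1.15 CPM per kb in knockdown and 1.33 CPM per kb in control libraries. Over the 6 regions of MEG3, a long noncoding RNA expressed from the maternal copy, H3K4me3 came to 61 counts in the knockdown and 32 counts in the control libraries. The counted region in the stretch placed as the MEG3 promoter DMR (chr14:101294370-101294716) held 29 H3K9me3 counts in knockdown and 34 in control libraries, with 3 counts of H3K4me3 in knockdown and 0 in control libraries. Where the MEG3 start lies relative to this region was not determined, so these counts are not a measure of its promoter.

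H3K9me3 was also present at the maternally methylated DMRs, at lower levels. It ranged over the 8 regions from 2.01 to 5.85 CPM per kb in knockdown libraries and from 1.32 to 9.16 CPM per kb in control libraries, at percentiles of 53.6 to 68.3 of all regions in knockdown and 53.5 to 78.6 in control libraries. Depth limits these values: the 8 regions held 31 to 129 H3K9me3 counts over the knockdown libraries and 34 to 150 over the control libraries. Of the 30649 regions in the top 20% for H3K4me3 in a group, the median H3K9me3 level was 1.2002 CPM per kb in knockdown and 0.783 CPM per kb in control libraries. Within that set the maternally methylated DMRs lay at a median percentile of 91.7 in knockdown and 94.6 in control libraries, with 5 of 8 over the 90th percentile in knockdown and 6 of 8 in control libraries. PLAGL1 stood at percentile 92.7 in knockdown and 97.7 in control libraries, the AS1 and XL region of GNAS at 93.2 and 96.9, MEST at 94.3 and 96.7, SNRPN at 93.6 and 94.7, KCNQ1OT1 at 86.7 and 94.5, and PEG10 at 90.6 and 93.8, each given for knockdown and then control. L3MBTL1 stood at 77.4 in knockdown and 87.8 in control libraries. The wide GNAS region over exon A/B and the main promoter was lowest, at 75.4 in knockdown and 73.3 in control libraries. A region upstream of the MEST DMR (chr7:130125603-130127445) had a similar H3K4me3 level, 15.6 CPM per kb in knockdown and 14.2 CPM per kb in control libraries, and stood at percentile 63.0 in knockdown and 66.2 in control libraries. The MEST DMR and the AS1 and XL region have the highest H3K9me3 per kb of their locus. Their ranks are therefore not independent of how they were named. All these percentiles describe 3 libraries per group, and no test was made of them.

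By library, H3K9me3 at single maternally methylated DMRs varied up to several-fold within a group. The KCNQ1OT1 DMR had 22.9, 9.70 and 4.66 CPM in knockdown libraries, against 16.3, 13.4 and 24.2 CPM in control libraries. The SNRPN DMR had 21.2, 7.76 and 19.9 CPM in knockdown libraries, against 16.8, 10.2 and 14.3 CPM in control libraries. The groups overlapped at both. The PEG10 DMR had 27.5, 10.7 and 14.4 CPM in knockdown libraries, against 20.1, 25.8 and 8.66 CPM in control libraries. The MEST DMR was steadier, with 20.6, 18.9 and 22.9 CPM in knockdown libraries, against 23.0, 17.7 and 29.9 CPM in control libraries. L3MBTL1 held the least, with 3.43, 10.7 and 1.27 CPM in knockdown libraries, against 4.79, 8.59 and 3.46 CPM in control libraries, and the groups overlapped. In these 3 regions neither group was wholly above the other. At GNAS the AS1 and XL region had 13.7, 12.6 and 13.98 CPM in knockdown libraries, against 14.4, 25.2 and 18.2 CPM in control libraries, with every knockdown value below every control value. The region over exon A/B and the main promoter had 15.5, 14.5 and 11.02 CPM in knockdown libraries, against 7.19, 12.9 and 6.93 CPM in control libraries, with overlap.

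By a stricter reading, few regions carried both marks strongly. Counting a mark as present in the top 20% of all regions, 1 of 30 regions in knockdown and 2 of 30 in control libraries had both H3K4me3 and H3K9me3, against 0.610% of all regions in knockdown and 0.427% in control libraries. In control libraries these were the H19 DMR and a narrow region at SNRPN (chr15:25203120-25203327). The SNRPN region is 208 bp wide. It held 20 H3K9me3 and 27 H3K4me3 counts over the control libraries and was too low to be tested in either mark. Of the regions with the highest H3K4me3 per kb at each locus over all 6 H3K4me3 libraries, 0 of 9 had both marks in either group. The count depends on the measure: by CPM per region, not divided by width, 11 of 30 regions had both marks in control libraries, against 2.26% of all regions.

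**Figure D2:**
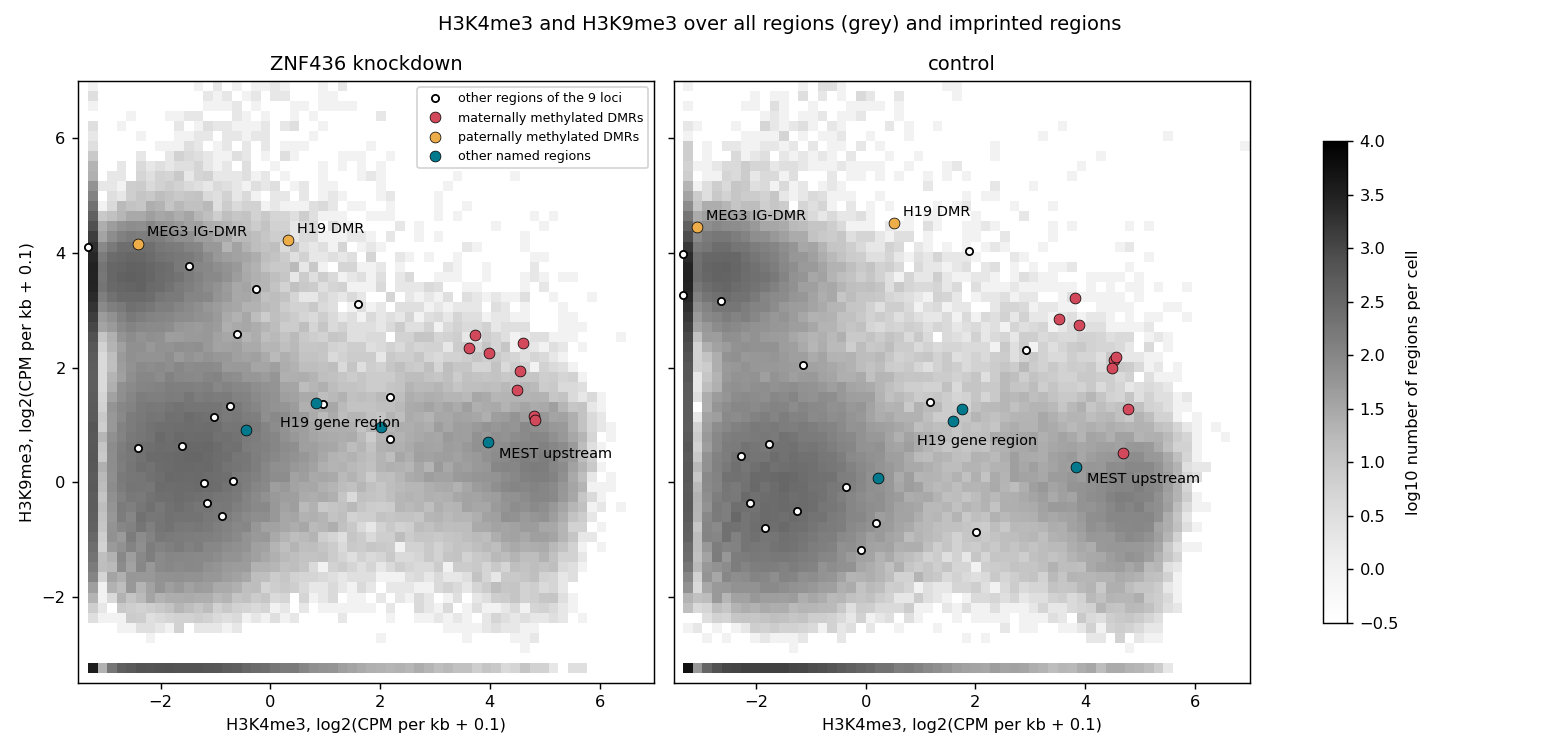
H3K4me3 (x axis) against H3K9me3 (y axis), both as log2 of mean CPM per kb plus 0.1, in knockdown (left) and control (right) libraries. Grey cells give the number of all counted regions on a log10 scale and circles are the 30 regions of the imprinted loci. The maternally methylated DMRs sit at the right with high H3K4me3, and the H19 DMR and MEG3 IG-DMR sit near the top with H3K9me3.

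The comparison of knockdown with control cells asks whether chromatin at these loci depends on ZNF436. No region of the 9 loci passed the test in any mark (edgeR's quasi-likelihood test, Benjamini-Hochberg adjusted p under 0.05 over all regions tested). For H3K9me3, 14 of the 30 regions had enough counts to be tested and 0 were called, against 0.00982% of all regions tested. For H3K4me3, 17 were tested and 0 called, against 0.56% of all regions tested. For H3K4me1, 23 were tested and 0 called, against 0.0%, and for H3K27ac 23 were tested and 0 called, against 0.0114%. DESeq2 called 1 of the 30 regions in H3K4me3 and 1 in H3K27ac, the H19 gene region in both, and 0 in H3K9me3 and H3K4me1. Over all regions, too, DESeq2 called more than edgeR in each mark, with the counts given in the last section. The number of calls over all regions depended on control replicate 3 in 3 marks: without it, 805 regions were called in H3K4me3, against 150 with it, 2443 in H3K4me1, against 0, and 1412 in H3K27ac, against 7. At an unadjusted p under 0.05, every region of the loci that passed was lower in knockdown libraries. They were 1 of 14 for H3K9me3, where the rule took 8.31% of all regions tested (3.99% higher, 4.32% lower), and 2 of 17 for H3K4me3, where it took 10.2% (5.26% higher, 4.93% lower). They were 5 of 23 for H3K4me1, where it took 10.5% (4.91% higher, 5.58% lower), and 2 of 23 for H3K27ac, where it took 11.3% (5.91% higher, 5.35% lower). The smallest adjusted p was 0.600 at PLAGL1 in H3K9me3, 0.0767 at H19 in H3K4me3, 0.270 at MEG3 in H3K4me1 and 0.179 at H19 in H3K27ac. The regions that passed the low-count filter had a median log2 fold change of -0.15 in H3K9me3, against 0.01 over all regions tested, and 0.02 in H3K4me3, against -0.01. In H3K4me1 it was -0.35, against -0.03, and in H3K27ac -0.21, against -0.05.

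At the maternally methylated DMRs the H3K4me3 estimates were more precise than those of H3K9me3. The log2 fold change lay between -0.15 and 0.17 over the 8 regions, and the 95% intervals of the fold change together spanned 0.773 to 1.41. For H3K9me3 the intervals were wider, from 0.258 to 2.92 over the same regions. The lowest H3K9me3 fold change was at the PLAGL1 DMR, with 8.01, 7.76 and 5.93 CPM in knockdown libraries, against 10.5, 13.96 and 18.2 CPM in control libraries. All knockdown libraries were below all control libraries there, and the log2 fold change was -0.98 (SE 0.49, unadjusted p 0.0483). It did not pass, with an adjusted p of 0.600 by edgeR. H3K27ac ran the other way at this DMR, with 4.08, 9.09 and 11.4 CPM in knockdown libraries, against 4.14, 3.67 and 5.87 CPM in control libraries, and the groups overlapped (log2 fold change 0.84, adjusted p = 0.688, edgeR). H3K4me1 at the MEST DMR was 10.9, 15.6 and 12.4 CPM in knockdown libraries, against 8.79, 7.08 and 11.4 CPM in control libraries (log2 fold change 0.51, adjusted p = 0.628, edgeR).

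**Figure D3:**
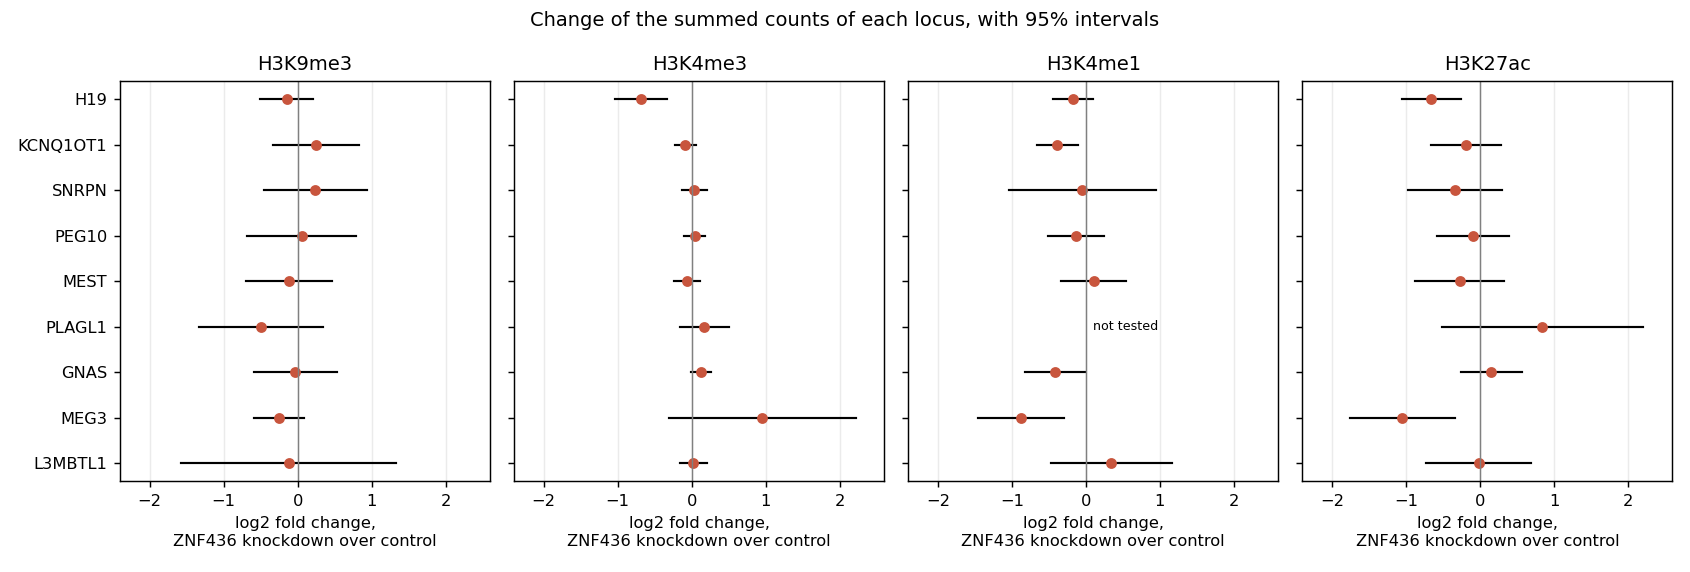
Log2 fold change, ZNF436 knockdown over control, of the counts summed over all regions of each locus, with 95% intervals from edgeR (3 libraries per group). PLAGL1 had too few H3K4me1 counts to be tested. The intervals are narrow for H3K4me3 at the loci with a promoter DMR, and those of H19 and MEG3 lie below 0 in H3K27ac, though no locus passed the adjusted test.

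Summing the counts of each locus gave 1 value per locus, and 0 of 9 loci were called in any mark. The smallest p values belonged to the H19 and MEG3 loci, each named for a noncoding RNA gene expressed from the maternal copy. At the H19 gene region (chr11:2007940-2019875), which begins outside the window, H3K4me3 was 16.5, 23.7 and 19.9 CPM in knockdown libraries, against 37.6, 41.1 and 25.3 CPM in control libraries. H3K27ac there was 151, 163 and 148 CPM in knockdown libraries, against 275, 247 and 209 CPM in control libraries. In both marks each knockdown library lay below each control library. The region covers the H19 gene and also reaches into the stretch placed as the H19 DMR, so its count holds both. By edgeR the log2 fold change was -0.79 for H3K4me3 (SE 0.19, adjusted p = 0.0767) and -0.66 for H3K27ac (SE 0.19, adjusted p = 0.179).

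Whether H19 passed depended on the method and on single libraries. The adjusted p for H3K4me3 was 0.00462 by DESeq2, 6.15e-06 with no count filter and 0.126 by limma-voom, and it was 0.00150 without control replicate 3, with a range of 6.15e-06 to 0.392 over all alternatives. The log2 fold change ranged from -0.97 without control replicate 3 to -0.65 without control replicate 2. For H3K27ac the adjusted p was 0.0394 by DESeq2 and 0.0408 by limma-voom, with a range of 0.0394 to 0.586. H3K4me1 at the same region was 191, 233 and 235 CPM in knockdown libraries, against 265, 260.4 and 221 CPM in control libraries, which overlapped (adjusted p = 0.664, edgeR). H3K9me3 was 23.5, 34.4 and 31.4 CPM in knockdown libraries, against 26.4, 31.1 and 13.9 CPM in control libraries, also with overlap (adjusted p = 0.825, edgeR).

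In H3K4me3 the control libraries had the opposite order at H19 and at the cardiomyocyte marker genes. H3K4me3 at the H19 gene region was highest in control replicate 2, whose H3K4me3 summed over all 3 marker genes was lowest at 129 CPM, followed by control replicate 1 at 290.1 CPM. Control replicate 3 had the lowest H19 value of the control libraries, 25.3 CPM, and the highest marker sum, 581 CPM. The knockdown libraries had 16.5 to 23.7 CPM at H19 and marker sums of 478 to 567 CPM. MYH6, a cardiac myosin gene, had 72.0, 55.8 and 58.0 CPM of H3K4me3 in knockdown libraries, against 26.0, 11.9 and 54.1 CPM in control libraries, without overlap (log2 fold change 1.02, adjusted p = 0.678, edgeR). For H3K27ac, control replicate 3 again had the lowest H19 value and the highest marker sum of the control libraries, while control replicate 1 was above control replicate 2 in both, with 275 and 247 CPM at H19 and 694 and 379.9 CPM at the marker genes. In H3K27ac, control replicate 3 had 209 CPM at H19 beside a marker sum of 986 CPM. The knockdown libraries had 148 to 163 CPM at H19 beside marker sums of 849 to 927 CPM. The part of these marker levels in the H19 result was not tested. A smaller number of cells with a mark and less of it per cell cannot be told apart in these data.

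**Figure D4:**
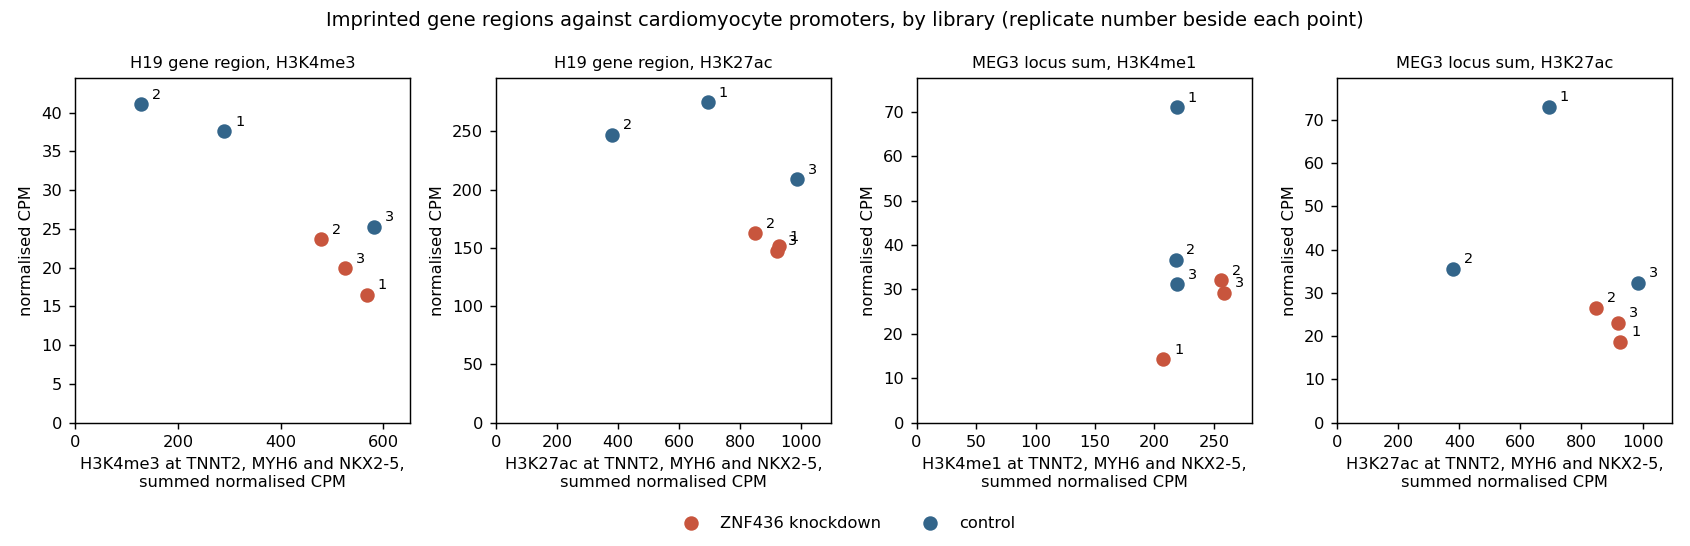
Normalised CPM at the H19 gene region and summed over the MEG3 regions (y axes) against the same mark summed over 3 cardiomyocyte marker genes (x axes), 1 point per library with its replicate number. Control replicates 1 and 2 combine low marker sums and high H19 values in H3K4me3, and control replicate 1 is far above the others at MEG3.

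The MEG3 locus had lower average H3K4me1 and H3K27ac in knockdown libraries. Summed over its 6 regions, H3K4me1 was 14.3, 32.0 and 29.3 CPM in knockdown libraries, against 71.0, 36.6 and 31.2 CPM in control libraries, and the groups overlapped by a small margin. H3K27ac was 18.7, 26.5 and 23.1 CPM in knockdown libraries, against 73.1, 35.6 and 32.3 CPM in control libraries, without overlap. Control replicate 1 was high in both marks. Of 327 H3K4me1 counts in knockdown and 585 in control libraries, the IG-DMR held 22 in each group. The region placed as the promoter DMR held 2 in knockdown and 0 in control libraries. Most of the H3K4me1 thus lay between them, and whether that stretch belongs to the MEG3 gene was not determined. For the summed counts the log2 fold change was -0.88 for H3K4me1 (SE 0.28, adjusted p = 0.281) and -1.05 for H3K27ac (SE 0.34, adjusted p = 0.232) by edgeR. Without control replicate 1 these became -0.43 (adjusted p = 0.785) and -0.54 (adjusted p = 0.761), and without control replicate 3 they became -1.09 (adjusted p = 0.0141) and -1.22 (adjusted p = 0.0593). The smallest p of a single region in H3K4me1 was at chr14:101288633-101289575, with 1.04, 3.18 and 3.32 CPM in knockdown libraries, against 15.3, 4.397 and 5.72 CPM in control libraries. Its log2 fold change of -1.73 (SE 0.55, adjusted p = 0.270, edgeR) rested on 33 counts in knockdown and 108 in control libraries. It was -0.997 without control replicate 1 (adjusted p = 0.795), -2.05 without control replicate 2 (adjusted p = 0.0490) and -1.95 without control replicate 3 (adjusted p = 0.0374). In H3K27ac the control libraries had the same order at MEG3 as at H19, highest in replicate 1 and lowest in replicate 3, beside the same marker sums of 694, 379.9 and 986 CPM. In H3K4me1 the marker sums were 207, 256 and 258 CPM in knockdown libraries, against 219, 218 and 219 CPM in control libraries. The part of the marker levels in the MEG3 values was not tested either.

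KCNQ1OT1 lies within an intron of the potassium channel gene KCNQ1, and its window also held regions beside the DMR. The region upstream of the DMR in coordinates (chr11:2708351-2717194) had strong H3K4me1, 131, 144 and 145 CPM in knockdown libraries, against 207, 174 and 166 CPM in control libraries. H3K9me3 at the same region was 15.5, 14.5 and 16.9 CPM in knockdown libraries, against 8.63, 8.06 and 8.66 CPM in control libraries. H3K4me3 was 5.79, 5.34 and 5.62 CPM in knockdown libraries, against 12.1, 9.26 and 7.05 CPM in control libraries. The groups did not overlap in any of these 3 marks: knockdown libraries were lower in H3K4me1 and H3K4me3 and higher in H3K9me3. None passed, with adjusted p values of 0.353 for H3K4me1 (log2 fold change -0.38, SE 0.15), 0.613 for H3K9me3 (0.88, SE 0.45) and 0.270 for H3K4me3 (-0.76, SE 0.27) by edgeR. Per kb, H3K9me3 at this region was 1.77 CPM in knockdown and 0.955 CPM in control libraries. These levels lay at percentile 50.3 of all regions in knockdown and 45.2 in control libraries. The median H3K9me3 of regions in the top 20% for H3K4me3, given above, was also higher in knockdown libraries. Over all regions tested for H3K9me3, the median log2 fold change was 0.01. Whether the H3K9me3 difference is particular to this region was not tested. The region on the other side of the DMR (chr11:2724054-2726604) had 18.4, 24.9 and 22.0 CPM of H3K4me1 in knockdown libraries, against 29.1, 43.7 and 33.0 CPM in control libraries (log2 fold change -0.69, adjusted p = 0.316, edgeR). The DMR between them had 18.1, 20.5 and 6.43 CPM of H3K4me1 in knockdown libraries, against 19.4, 10.02 and 12.99 CPM in control libraries, with overlap.

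Regions whose groups do not overlap were counted in each mark as a further description, among the regions of the loci that passed the count filter. For H3K9me3, 1 of 14 regions lay above and 3 lay below the control libraries, against 7.17% and 7.19% of all regions tested. For H3K4me3 it was 1 of 17 above and 2 below, against 8.49% and 7.74%. For H3K4me1 it was 0 of 23 above and 5 below, against 7.9% and 7.68%. For H3K27ac it was 1 of 23 above and 3 below, against 9.14% and 8.37%. Regions under the filter were left out, and in H3K4me1 some of these lay above and some below the control libraries. Of the 16 regions not among the 14 plotted, 4 passed the count filter for H3K4me3 and 2 for H3K9me3.

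Another 20 imprinted loci were set beside these, and 19 of their windows held 28 counted regions. Of these, 8 could be tested in H3K9me3, 15 in H3K4me3, 17 in H3K4me1 and 14 in H3K27ac, and 0 were called in any mark by edgeR. The unadjusted threshold of 0.05 took 0 of 8 in H3K9me3, 1 of 15 in H3K4me3, 1 of 17 in H3K4me1 and 2 of 14 in H3K27ac. Of the regions with H3K4me3 in the top 20%, 8 of 17 regions of the 9 loci in knockdown and 9 of 20 in control libraries were over the 90th percentile of H3K9me3 among such regions. For the other imprinted loci it was 7 of 18 regions in knockdown and 8 of 21 in control libraries. High H3K9me3 with little H3K4me3 was also seen at PEG3 and IGF2R, where the maternal copy is the methylated one, as it is not at the H19 DMR and the MEG3 IG-DMR. The PEG3 region had 16.3 CPM per kb of H3K9me3 in knockdown and 19.7 CPM per kb in control libraries, with 12 H3K4me3 counts in knockdown and 6 in control libraries. A region at IGF2R had 13.9 CPM per kb of H3K9me3 in knockdown and 13.2 CPM per kb in control libraries, with 3 H3K4me3 counts in knockdown and 10 in control libraries. Both were chosen after their values were seen.

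The regions with the highest H3K4me3 per kb at each locus over all 6 H3K4me3 libraries, at MEST the one upstream of the DMR, had in control libraries a median percentile of 95.5 in H3K4me3 and 81.3 in H3K27ac, and of 63.3 in H3K9me3 and 44.9 in H3K4me1. The 5 regions outside the windows nearest to this profile, by Euclidean distance over the 4 percentiles, were chr11:66724749-66726610, chr3:100210346-100212741, chr21:46975267-46976445, chr19:11997996-12000268 and chrX:53252238-53255436, at distances of 2.41 to 3.65. None of the nearest 100 regions lay in the windows of the other imprinted loci. With knockdown libraries in place of control libraries, 1 of the nearest 100 did, at CDKN1C, and 0 of the nearest 5 were shared. The likeness covers 4 marks only.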

How the data were processed

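The deposited files hold raw read counts for each of 24 CUT&Tag libraries over 1 list of 153244 hg19 regions (median width 708 bp), not normalized by the authors. Tools listed in the submitters' processing notes are bedtools 2.30.0, deepTools 3.5.4 and Bowtie2 2.4.5; filters on reads and regions were not stated. Even counts made up 51.9% to 65.9% of counts above 0 per library, so counting error may be understated. Group, mark and replicate number came from sample titles. Counts were normalised by TMM and tested per mark on all regions with edgeR 4.0.16 (R 4.3.3; filterByExpr, robust quasi-likelihood, Benjamini-Hochberg, threshold 0.05). CPM are counts over the TMM-scaled library size. The script was tested on simulated data. Alternatives were other scalings, filters, DESeq2 1.42.0, limma-voom (limma 3.58.1), a replicate block and leaving out each library. Windows of the other imprinted and marker genes, and the names of elements within H19, GNAS and MEG3, were placed from textbook positions. All loci were named, with the regions highest in H3K4me3 and in H3K9me3 per kb and those with the smallest p in each direction. Other regions were named after their values were seen. The members and lists were chosen with earlier results of these data known. No 2 libraries of the same mark and group agreed within sampling noise (24 pairs).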

Additional observations from a re-analysis of the deposited data

How the results depend on the processing

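For H3K9me3 no region of the loci and no locus was called under any alternative. For H3K4me3, 1 region and 1 locus, both at H19, were called with DESeq2 and also with no count filter, and 0 to 1 when a library was left out (1 without control replicate 3). For H3K4me1 the counts were 0 to 1 when a library was left out: 1 region, MEG3 chr14:101288633-101289575, without control replicate 2 or 3, and 1 locus, MEG3, without control replicate 3. For H3K27ac, 1 region and 1 locus, both at H19, were called with DESeq2 and also with limma-voom. The cause was not tested. Replicate numbers showed no strong pairing of the groups: same-numbered libraries correlated at -0.103 to 0.0665 over 12 pairs, 0 of them over 0.1. The same-numbered control library was the best partner in 6 of the 12 cases, so a weak pairing remains possible. With the replicate number as a block, 0 regions and 0 loci were called in each mark, while calls over all regions were 6, 177, 94 and 102 for H3K9me3, H3K4me3, H3K4me1 and H3K27ac. Over all regions, H3K9me3 calls (3) were 8 with library totals, 49 with DESeq2, 10 with limma-voom and 4 to 20 without a library; H3K4me3 calls (150) were 456 with DESeq2, 666 with no filter and 27 to 805 without a library. H3K4me1 calls (0) were 10 with library totals, 94 with DESeq2, 6 with limma-voom, 208 with no filter and 0 to 2443 without a library; H3K27ac calls (7) were 669 with DESeq2, 266 with limma-voom, 599 with no filter, 43 with a strict filter and 0 to 1412 without a library. The count of regions with both H3K4me3 and H3K9me3, 2 of 30 in control libraries, was 0 with the top 10%, 11 by CPM per region and 1 in knockdown libraries. Of the 5 regions most alike, 0 were shared with knockdown libraries. Of 608 refits of 48 values of named regions, 39 changed sign and 7 passed the threshold. At the maternally methylated DMRs the 95% intervals of the fold change spanned 0.336 to 4.59 for H3K27ac and 0.258 to 2.92 for H3K9me3; H3K4me3 at the MEG3 IG-DMR was too low to be tested.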
